A study of Mus musculus with 9 samples.

Results

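The expression of 10 genes of the BCL2 family was followed in RNA-seq of mouse B cells with and without the transcription factor YY1: 6 pro-survival genes (Bcl2, Bcl2l1, Bcl2l2, Bcl2a1b, Bcl2a1d and Mcl1) and 4 pro-apoptotic genes (Bak1, Bcl2l11, Bid and Bmf). They were chosen by name, as rows of the count files whose Ensembl ID maps to these symbols, and all 10 were found among 48795 gene IDs. All 10 also passed the filter on low counts, which kept 15546 genes. Follicular B cells, the main resting B cells of the spleen, were selected on CD23 from C57BL/6 yy1 f/f mice, in which loxP sites flank both Yy1 alleles. The mock group (3 libraries) carries this floxed genotype and received a treatment without recombinase, and the tatcre group (3 libraries) carries it too and received TAT-CRE, a cell-permeable Cre protein that removes Yy1. All RNA libraries are from cells activated in culture by LPS together with IL-4. The series text gives 72 hours in 10% serum and the sample text 48 hours in 20% serum. The sample text also lists TAT-CRE for every sample, so groups follow the titles. Ages are not in the labels, each spleen was divided over the treatments, and no label ties a library to a mouse, so a p-value here reflects only how far libraries of a group scatter, which may be in part technical. Exposure to the recombinase and loss of Yy1 cannot be told apart in this design.

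The BCL2 family governs the mitochondrial route of apoptosis. Effectors such as BAK and BAX open the outer mitochondrial membrane and release cytochrome c. Pro-survival proteins (BCL2, BCL-XL, BCL-W, MCL1 and A1) hold the effectors in check, and BH3-only proteins (BIM, BID, BMF, NOXA, PUMA and others) bind the pro-survival proteins or activate the effectors. In B cells, BCL2 and MCL1 sustain resting cells, A1 and BCL-XL are induced on activation, and BIM limits the lifespan of lymphocytes. Transcript isoforms, such as those of Bcl2l1 and Bcl2l11 that code for proteins of different strength, are not separated by counts per gene, and RNA says nothing direct of protein.

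Libraries held 22729187 to 28230727 gene counts, and levels are given as CPM, that is, counts scaled to a common library total, on scaled library sizes, followed by the SD over 3 libraries. Yy1 itself had 2542 to 3018 counts in mock and 24 to 50 in tatcre libraries, which matches the titles. Mock 3 stood apart from the other mock libraries on the first principal component and had the fewest genes with a count, 20420. The 7 B cell markers, among them Cd79a, Cd79b, Ms4a1, Pax5, Cd22 and Fcer2a, were present in every library. Their summed level was 5047 to 5335 CPM in mock and 4133 to 4198 CPM in tatcre libraries. Of the 7, 4 were called lower, as were 16.3% of all tested genes. Summed markers of NK, erythroid, platelet and myeloid cells stayed at or under 2.3 CPM in every library, with Cd14, S100a8, S100a9, Fcgr1, Nkg7, Hba-a2, Hbb-bs, Ppbp and Gp1bb at 0 throughout. T cell markers summed to 14.7 to 21.2 CPM in mock and 9.78 to 13.3 CPM in tatcre libraries, nearly all of it Lck. Lck was called lower (log2 fold change -0.72, edgeR adjusted p = 0.00952) and Trac (0.96) was not called. The other 6 of the 8 markers were too low to test, among them Cd3e, with 0 to 4 counts in mock and 8 to 12 in tatcre libraries. Dendritic cell markers summed to 120 to 134 and 106 to 113 CPM, mostly Flt3, plasma cell markers to 812 to 851 and 633 to 695 CPM, mostly Irf4 and Xbp1, and stromal or endothelial markers to 39.1 to 49.4 and 36.6 to 40.7 CPM, mostly Pecam1. Within the last list Pecam1 was called lower (log2 fold change -0.31, edgeR adjusted p = 0.0354) and Col1a1, with 3 to 20 counts in mock and 37 to 62 in tatcre libraries, was called higher (edgeR adjusted p = 0.0178). Cdh5 (1.10), Kdr (0.51) and Col1a2 (0.14) were not called, and the median log2 fold change of the 5 tested genes was 0.51. Of the plasma cell markers Irf4 (log2 fold change -0.43, edgeR adjusted p = 0.00137) and Jchain (-0.48, edgeR adjusted p = 0.0295) were called lower. Xbp1 (-0.07), Prdm1 (-0.08) and Sdc1 (0.09) were not called, and Tnfrsf17 was too low to test. Of the dendritic cell markers Flt3 was called lower (-0.24, edgeR adjusted p = 0.0486) and Zbtb46 (-0.04) was not called. The other 4 were too low to test. The part of these shifts in the results below was not tested. In bulk RNA, fewer cells of a type and less RNA per cell cannot be told apart.

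The tatcre against mock comparison asked how activated B cells differ after TAT-CRE treatment, that is, after recombinase exposure and Yy1 loss together. Of the 10 genes 3 fell (Bcl2l1, Bcl2a1b and Bcl2a1d), 2 rose (Bcl2l2 and Bcl2l11) and 5 were not called (Bcl2, Mcl1, Bak1, Bid and Bmf) at an adjusted p of 0.05. Among all tested genes 27.1% were called, 16.3% lower and 10.8% higher. This balance depends on the scaling and on single libraries. The 2536 lower and 1679 higher calls became 2097 and 2229 with upper-quartile factors and 1894 and 2614 with library size alone, and the higher calls were 998 without mock 2 and 1002 without tatcre 1. In genes of mean log2 CPM 5 and above, where all members but Bmf lie, 36% were called, 24.3% lower and 11.7% higher. The same 5 members were the ones whose mock and tatcre libraries did not overlap, 3 lower and 2 higher. Such separation holds for 44% of tested genes, 23.3% lower and 20.6% higher. The median log2 fold change was -0.18 over the pro-survival genes and -0.13 over the pro-apoptotic genes, beside 0.02 over all tested genes. The pro-survival median counts the near-identical copies Bcl2a1b (-1.25) and Bcl2a1d (-1.26) as 2 genes. The other pro-survival genes lay at -0.40, 0.04, 0.11 and 0.69, so the median is not read as a fall of the group. Changes thus ran both ways among the pro-survival genes, and the only pro-apoptotic gene called was Bcl2l11. The 5 calls held, with the same genes, in each of 13 other fits (other scalings, filters, DESeq2, a replicate block and every library left out in turn).

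**Figure D1:**
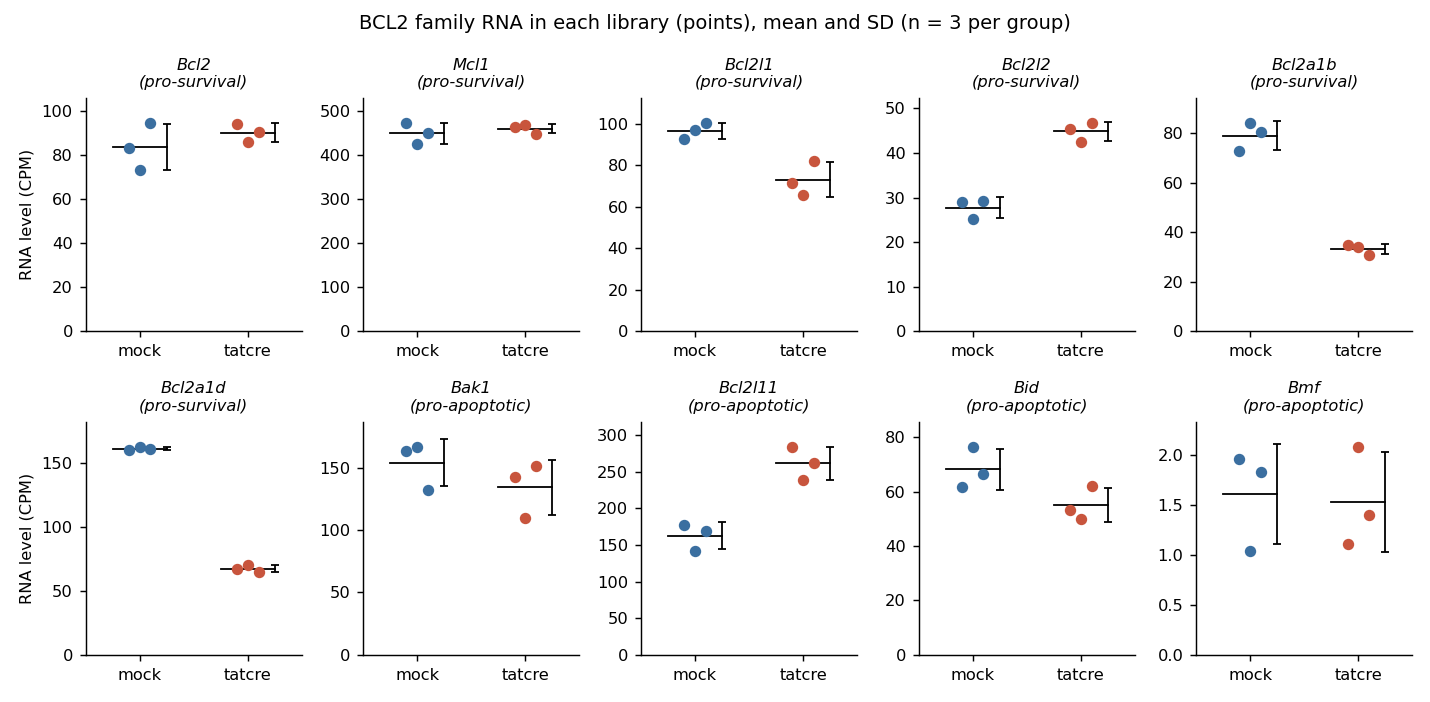
RNA level of each member in CPM (vertical axes from 0, a scale per panel) in the 3 mock and 3 tatcre libraries (points), with the group mean (line) and SD (error bar). Relative to the scale of its panel the gap is widest for Bcl2a1b and Bcl2a1d, Bcl2l2 and Bcl2l11 are higher in all tatcre libraries, and the groups of Bcl2, Mcl1, Bak1, Bid and Bmf overlap.

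The steepest falls were those of the A1 genes Bcl2a1b and Bcl2a1d, which encode a short-lived pro-survival protein induced by NF-kB during activation. Mice carry several near-identical copies of this gene on chromosome 9, and reads from a copy may be counted to another or lost, since how multiply placed reads were handled is not stated. The likeness extends into the flanking DNA. Shown here is a stretch that the copies share before their RefSeq start sites (RefSeq, GRCm38.p6, each 5′ to 3′ in the direction of transcription). It ends at the base before the annotated start in Bcl2a1d and Bcl2a1a, and at position -45 in Bcl2a1b. For Bcl2a1d, capitals mark bases that differ from Bcl2a1b, and for Bcl2a1b and Bcl2a1a they mark bases that differ from Bcl2a1d or are missing in it. They are given because they show how little separates the copies.
Bcl2a1d (chr9:88731851-88732050, minus strand): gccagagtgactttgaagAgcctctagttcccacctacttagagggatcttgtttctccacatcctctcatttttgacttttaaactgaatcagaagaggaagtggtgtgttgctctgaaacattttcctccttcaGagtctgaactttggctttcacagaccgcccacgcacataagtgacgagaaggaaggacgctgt
Bcl2a1b (chr9:89199023-89199228, plus strand): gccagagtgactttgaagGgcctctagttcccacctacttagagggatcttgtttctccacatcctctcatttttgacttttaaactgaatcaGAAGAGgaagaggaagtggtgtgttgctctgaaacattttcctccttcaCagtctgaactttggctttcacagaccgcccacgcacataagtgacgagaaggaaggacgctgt
Bcl2a1a (chr9:88956714-88956919, plus strand): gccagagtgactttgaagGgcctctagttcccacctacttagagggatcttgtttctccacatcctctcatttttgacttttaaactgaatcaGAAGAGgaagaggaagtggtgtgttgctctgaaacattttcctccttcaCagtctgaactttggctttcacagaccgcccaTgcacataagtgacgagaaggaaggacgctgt
In a local alignment of the 250 bases before each start site, Bcl2a1b and Bcl2a1d shared 206 columns, of which 198 were identical, 2 mismatched and 6 a gap. The same alignment gave 99.5% identity between Bcl2a1a and Bcl2a1b over 206 columns and 95.2% between Bcl2a1a and Bcl2a1d over 250 columns.

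Bcl2a1d (ENSMUSG00000099974, chromosome 9, 88723288 to 88731850 in GRCm38.p6) stood at 160, 163 and 161 CPM in mock 1, 2 and 3 and at 67, 70.5 and 65.2 CPM in tatcre 1, 2 and 3. Every mock library lay above every tatcre library, with a mock SD of 1.38 CPM against a gap of over 90 CPM between the group means. The gene fell 2.39-fold (-1.26 on the log2 scale, SE 0.07; by the quasi-likelihood test of edgeR, Benjamini-Hochberg adjusted p = 1.9e-06). Only 415 of 15546 tested genes had a log2 fold change as low or lower. Bcl2a1b (ENSMUSG00000089929, chromosome 9, 89199273 to 89207838) had 72.7, 84.2 and 80.3 CPM in mock and 35, 34 and 31 CPM in tatcre libraries. It too was separated without overlap and fell 2.37-fold (log2 fold change -1.25, SE 0.09, edgeR adjusted p = 7.12e-06). Because reads of these copies are hard to assign, the split between them was examined. Bcl2a1d took 63.4 to 67.6% of all Bcl2a1 counts and Bcl2a1b 30.7 to 33.4%, over all 6 libraries, and the count ratio of Bcl2a1b to Bcl2a1d was 0.489 ± 0.0324 in mock and 0.493 ± 0.0256 in tatcre cells (SD, n = 3 each). The split thus differed between groups by less than its spread, and the values of the copies cannot be read as independent of each other. Bcl2a1a, another full copy, held only 1.11 to 3.53% of these counts, with 107, 120 and 87 counts in mock and 91, 68 and 27 in tatcre libraries, and was not called (log2 fold change -0.67, SE 0.36, edgeR adjusted p = 0.189). Its value was -0.31 without tatcre 3 (edgeR adjusted p = 0.375) and -1.06 without tatcre 1 (edgeR adjusted p = 0.0801). No read was counted to Bcl2a1c, and a count of 0 leaves room for a level of 0.128 CPM at most in the library with the highest limit. With the 4 copies summed to a single row, the level was 237, 252 and 245 CPM in mock and 106, 107 and 97.2 CPM in tatcre libraries, and the sum fell 2.37-fold (log2 fold change -1.24, SE 0.08, edgeR adjusted p = 2.53e-06). The nearest tested genes at these copies were not called. Mthfs, 3352 bp past Bcl2a1b, had a log2 fold change of 0.06 (edgeR adjusted p = 0.885). Mthfsl, 2968 bp past Bcl2a1d in the direction of its transcription, had one of 0.02 (edgeR adjusted p = 0.933).

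**Figure D2:**
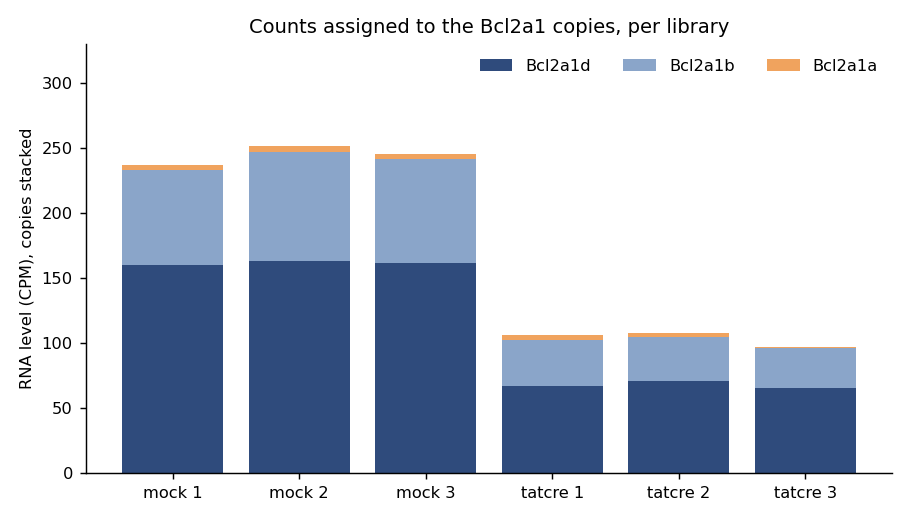
RNA level assigned to Bcl2a1d, Bcl2a1b and Bcl2a1a in CPM, stacked for each library (vertical axis from 0; Bcl2a1c had no counts). The stacks reach 237 to 252 CPM in mock and 97.2 to 107 CPM in tatcre libraries, with the same order of copies in all.

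Bcl2l1 (ENSMUSG00000007659, chromosome 2, 152758732 to 152833803) encodes BCL-XL, the other pro-survival protein that rises on activation. Its level was 92.5, 96.7 and 100 CPM in mock and 71.2, 65.5 and 82.1 CPM in tatcre libraries. The highest tatcre library stayed below the lowest mock library. The fall was 1.32-fold (log2 fold change -0.40, SE 0.09, edgeR adjusted p = 0.0093), and 2632 of 15546 tested genes had a log2 fold change as low or lower, so it is a modest change here. H13 and Tpx2, the nearest tested genes on either side, 50064 and 14161 bp away, were also called lower (log2 fold changes -0.42 and -0.23, edgeR adjusted p = 0.0131 and 0.0267).

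Bcl2l2 (ENSMUSG00000089682, chromosome 14, 54883366 to 54890858), which encodes BCL-W, went the other way. It stood at 29, 25.1 and 29.2 CPM in mock and 45.3, 42.5 and 46.7 CPM in tatcre libraries, with no overlap. The rise was 1.62-fold (log2 fold change 0.69, SE 0.09, edgeR adjusted p = 0.000389), and 2219 tested genes rose as much or more. Pabpn1, which begins 3285 bp after it, was called lower (log2 fold change -0.43, edgeR adjusted p = 0.0409). Of the pro-survival genes it was the only one called higher.

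Bcl2 and Mcl1, the genes of the founding family member and of a short-lived protein that B cells need at most stages, were not called. Bcl2 (ENSMUSG00000057329, chromosome 1, 106538176 to 106714290) had 83.2, 73.5 and 94.8 CPM in mock and 94.4, 86.1 and 90.7 CPM in tatcre libraries. All tatcre values lay within the mock range. Its log2 fold change was 0.11, with a 95% interval from -0.11 to 0.33 (edgeR adjusted p = 0.434). Mcl1 (ENSMUSG00000038612, chromosome 3, 95656944 to 95663179) had 473, 424 and 450 CPM in mock and 465, 468 and 449 CPM in tatcre libraries. Its groups overlapped as well, and the log2 fold change of 0.04 had a 95% interval from -0.12 to 0.19 (edgeR adjusted p = 0.738). Changes of the size seen in Bcl2a1d, Bcl2l2 or Bcl2l1 lie outside these intervals. Without mock 2 the estimate for Mcl1 was -0.01 (edgeR adjusted p = 0.935), still near 0.

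Among the pro-apoptotic genes, Bcl2l11 (ENSMUSG00000027381, chromosome 2, 128126038 to 128162547) rose. It encodes BIM, a BH3-only protein that binds all the pro-survival proteins. Its level was 177, 142 and 169 CPM in mock and 284, 239 and 261 CPM in tatcre libraries, so that every tatcre library exceeded every mock library. The rise was 1.61-fold (log2 fold change 0.68, SE 0.10, edgeR adjusted p = 0.000609), and 2261 tested genes rose as much or more. Across the 6 libraries the levels of Bcl2l11 and Bcl2l2 had a Pearson r of 0.985 on the log2 scale, and Bcl2l11 and Bcl2a1d one of -0.952. These describe 6 points that fall into 2 groups and share their library scaling.

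Bak1, Bid and Bmf were not called. Bak1 (ENSMUSG00000057789, chromosome 17, 27019812 to 27028627), the gene of an effector, had 163, 167 and 132 CPM in mock and 142, 109 and 151 CPM in tatcre libraries. Its groups overlapped (log2 fold change -0.20, 95% interval -0.48 to 0.08, edgeR adjusted p = 0.269). The gene Ggnbp1 overlaps Bak1, with 476 counts over all libraries, and rose (log2 fold change 1.20, edgeR adjusted p = 0.00751), and reads in the overlap may be lost or counted to either. Bid (ENSMUSG00000004446, chromosome 6, 120893119 to 120917062), whose product is cut by caspase-8 and links death receptors to mitochondria, had 61.6, 76.5 and 66.5 CPM in mock and 53.3, 49.9 and 62.2 CPM in tatcre libraries. Tatcre 3 lay just above mock 1, and all other tatcre values below the mock range. The log2 fold change was -0.31 (SE 0.11, edgeR adjusted p = 0.059), close to the threshold. Bid was called lower without mock 1 (edgeR adjusted p = 0.0393), without tatcre 3 (edgeR adjusted p = 0.0239), without the filter on low counts (edgeR adjusted p = 0.00648) and in the DESeq2 fit (adjusted p = 0.0401). Bmf (ENSMUSG00000040093, chromosome 2, 118528757 to 118549686), a BH3-only gene, was barely present, with 52, 28 and 43 counts in mock and 27, 50 and 35 counts in tatcre libraries. At this depth its 95% interval ran from -0.94 to 0.80 on the log2 scale, so a change of the size of that in Bcl2l11 was not detectable.

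To set pro-apoptotic against pro-survival RNA without library scaling, counts of Bcl2l11 were divided by those of each pro-survival gene within a library. The ratio to Bcl2 was 2.12, 1.93 and 1.79 in mock and 3.01, 2.77 and 2.88 in tatcre libraries. Against Mcl1 it was 0.373, 0.335 and 0.376 in mock and 0.611, 0.51 and 0.582 in tatcre libraries. Against Bcl2l1 it went from 1.69 ± 0.22 to 3.6 ± 0.404, a 2.13-fold higher ratio. For the A1 genes the shift was wider still, with 1.01 ± 0.121 in mock and 3.88 ± 0.442 in tatcre cells for Bcl2a1d (SD, n = 3 each), and the Bcl2a1b ratio was 3.79-fold higher. In all 5 of these ratios the tatcre libraries lay above the mock libraries. All share Bcl2l11 as numerator, so they are not independent of its rise or of each other. Only the ratio to Bcl2l2 overlapped, at 5.85 ± 0.218 in mock and 5.82 ± 0.387 in tatcre cells, as numerator and denominator rose alike. By contrast, the ratio of Bak1 to Mcl1 overlapped (0.344 ± 0.0498 and 0.292 ± 0.0527), as did that of Bak1 to Bcl2l1 (1.6 ± 0.248 and 1.83 ± 0.163). Bid to Bcl2 was lower in all tatcre libraries (0.564 to 0.686, mock 0.701 to 1.04). Summed over its genes, the pro-survival level was 911, 867 and 916 CPM in mock and 778, 767 and 764 CPM in tatcre libraries, with no overlap. That gap rests on the A1 genes: without Bcl2a1b and Bcl2a1d the sum was 678, 620 and 675 CPM in mock and 676, 662 and 668 CPM in tatcre libraries, which overlap. The pro-apoptotic sum was 403, 386 and 370 CPM in mock and 481, 400 and 476 CPM in tatcre libraries, with overlap at tatcre 2. These ratios and sums weigh genes by transcript length and are given as descriptions, without a test.

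**Figure D3:**
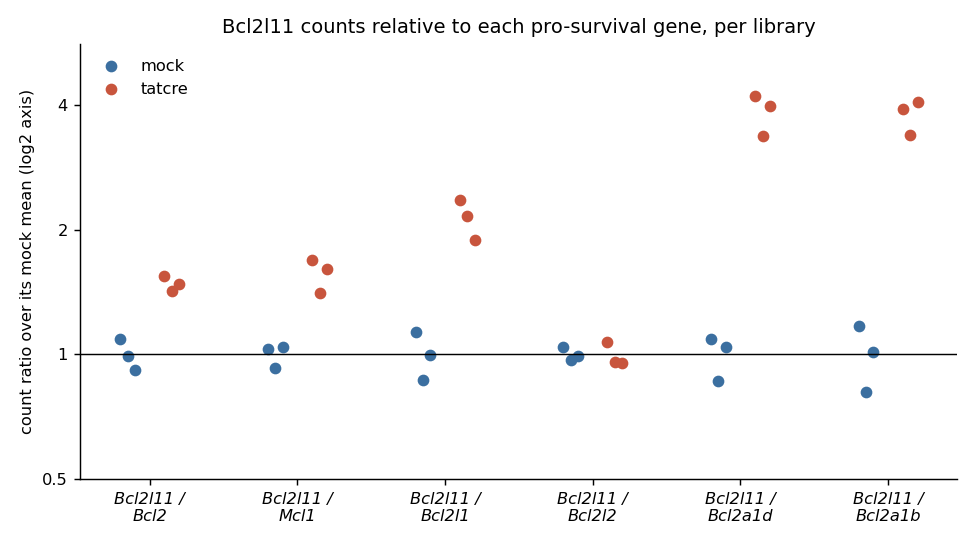
Counts of Bcl2l11 divided by those of each of the 6 pro-survival genes, per library, over the mock mean of that ratio (log2 axis). Tatcre points lie above mock points for 5 ratios, on average 3.85 and 3.79 times the mock mean for Bcl2a1d and Bcl2a1b, and among the mock points for Bcl2l2.

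Of 14 other family genes 9 were tested, of which 3 fell (Pmaip1, Bcl2l12 and Bcl2l14), 1 rose (Bcl2l13) and 5 were not called. The shares over all tested genes were 16.3% lower and 10.8% higher. Pmaip1 encodes NOXA, a BH3-only protein that binds MCL1 and A1. It fell 1.49-fold, from 150, 141 and 178 CPM in mock to 101, 117 and 97.3 CPM in tatcre libraries (log2 fold change -0.57, SE 0.11, edgeR adjusted p = 0.00241). Bcl2l11 and Pmaip1, both BH3-only genes, thus moved in opposite directions. The count ratio of Pmaip1 to Mcl1 was 0.348 ± 0.0413 in mock and 0.228 ± 0.018 in tatcre cells (SD, n = 3 each). Bbc3, which encodes the BH3-only protein PUMA, differed by 0.51 on the log2 scale (SE 0.22, edgeR adjusted p = 0.111), Bax, the partner effector of Bak1, 0.19 (SE 0.14, edgeR adjusted p = 0.346), and Bad, another BH3-only gene, 0.26 (SE 0.22, edgeR adjusted p = 0.397). Tatcre 2 was the lowest of its group for all 3 of these genes, and without it Bbc3 (edgeR adjusted p = 0.0262) and Bax (edgeR adjusted p = 0.0281) were called higher. Bbc3 was also called higher without the filter on low counts (log2 fold change 0.48, edgeR adjusted p = 0.0332). The values fell with other libraries left out, to 0.18 for Bbc3 (edgeR adjusted p = 0.494) and 0.11 for Bad (edgeR adjusted p = 0.792) without tatcre 1, and to 0.06 for Bax (edgeR adjusted p = 0.796) without tatcre 3. Bcl2l12 went from 24 ± 0.979 to 19.3 ± 0.713 CPM (edgeR adjusted p = 0.0299). Bcl2l13, the gene next to Bid with 277 bp between them, went from 45 ± 0.48 to 55.6 ± 5.44 CPM (edgeR adjusted p = 0.0288). Neither of these calls was firm: Bcl2l12 lost it without mock 1, mock 2, tatcre 1 or tatcre 2 (edgeR adjusted p from 0.0617 to 0.0804) and under upper-quartile or no scaling factors (0.0644 and 0.114), and Bcl2l13 without any library but tatcre 2 (edgeR adjusted p from 0.0679 to 0.12). Bcl2l14 had 23, 16 and 16 counts in mock and 0, 6 and 0 in tatcre libraries (edgeR adjusted p = 0.0375), a call lost without mock 1, mock 2, tatcre 1 or tatcre 3 (edgeR adjusted p from 0.0832 to 0.126). Bcl2l15 was not called (edgeR adjusted p = 0.93). Hrk (3 to 26 counts a library), Bik and Bok (at most 2) were too low to test, and Bcl2a1c and Bcl2l10 had 0 counts.

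**Figure D4:**
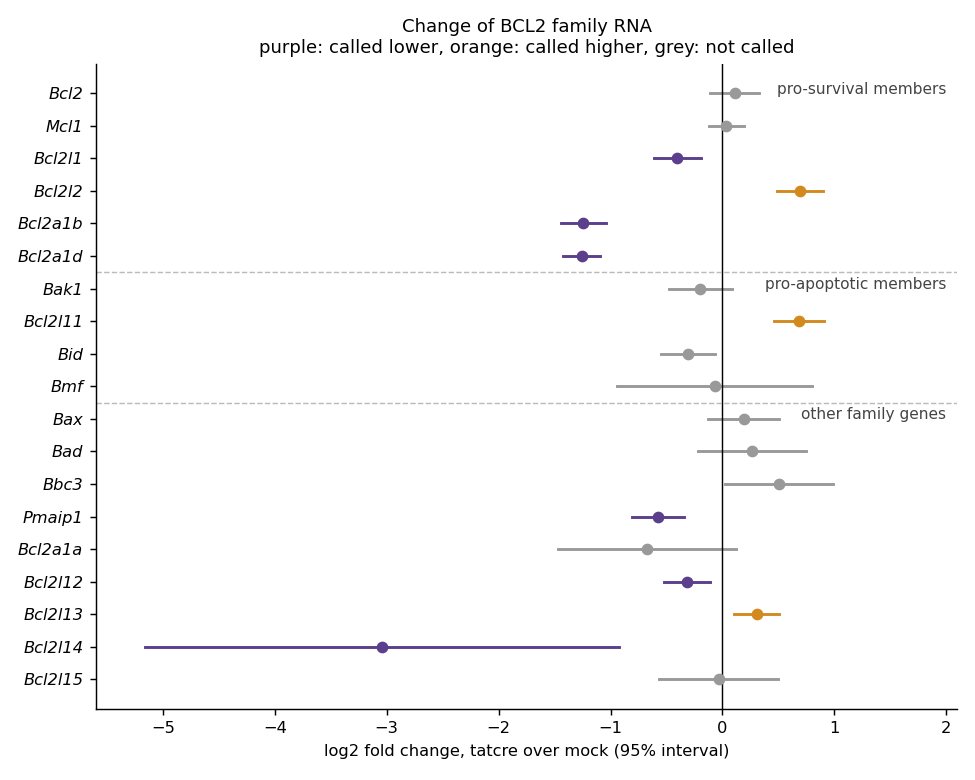
log2 fold change of tatcre over mock (point) with its 95% interval (line) for the 10 members and the 9 other family genes tested. Intervals of Bcl2a1b and Bcl2a1d lie wholly below -1, those of Bcl2l2 and Bcl2l11 wholly above 0, and those of Bcl2 and Mcl1 span 0.

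Next, genes that act downstream of the family were examined. Counts of calls in this and all later lists stand beside 16.3% lower and 10.8% higher among all tested genes. In genes of mean log2 CPM 5 and above these shares were 24.3% and 11.7%. Of 11 genes of the apoptosome and executioner caspases 2 fell, 3 rose and 6 were not called. Apaf1, the scaffold on which cytochrome c activates caspase-9, rose 1.38-fold (62 ± 3.33 to 85.8 ± 1.57 CPM, edgeR adjusted p = 0.00139). Casp6, a caspase gene, rose 1.30-fold (edgeR adjusted p = 0.0155; 0.0649 to 0.0929 without mock 2, mock 3 or tatcre 1). Htra2, a mitochondrial protease, fell 1.39-fold (edgeR adjusted p = 0.00463). Of 5 genes of inhibitors of apoptosis proteins 2 fell and 1 rose. Birc5 (survivin) fell 1.46-fold (245 ± 8.43 to 168 ± 1.13 CPM, edgeR adjusted p = 0.000285) and Birc3 (cIAP2) 1.23-fold (edgeR adjusted p = 0.0143; 0.0508 without mock 2 and 0.0682 without scaling factors). Xiap, a direct caspase inhibitor, rose 1.29-fold (edgeR adjusted p = 0.0131; 0.0652 without mock 2 and 0.0528 without tatcre 1).

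In the death receptor route, which feeds into the family through BID, 2 of 9 tested genes fell, 2 rose and 5 were not called. Cflar, which encodes the caspase-8 inhibitor c-FLIP, fell 1.40-fold (246 ± 17 to 175 ± 3.07 CPM, edgeR adjusted p = 0.00098), and the receptor gene Fas fell 1.34-fold (edgeR adjusted p = 0.00767). Fadd, the adaptor, rose 1.36-fold (edgeR adjusted p = 0.029) and Tnfrsf10b, a TRAIL receptor, 1.33-fold (edgeR adjusted p = 0.0369). The rise of Fadd was lost without mock 1, mock 3, tatcre 1 or tatcre 3 (edgeR adjusted p from 0.0666 to 0.104), without the filter on low counts (0.0653) and by DESeq2 (0.0513), and that of Tnfrsf10b without any library but tatcre 2 (edgeR adjusted p from 0.0602 to 0.137).

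Genes whose products act on MCL1, BIM, BID or BMF protein were listed next, as 10 tested genes of which 4 fell and 2 rose. The kinase gene Mapk3 (ERK1, which marks BIM for degradation) fell 2.35-fold (27.4 ± 4.34 to 11.7 ± 1.17 CPM, edgeR adjusted p = 9.5e-05). Fbxw7, a ubiquitin ligase subunit that targets MCL1, fell 1.41-fold (220 ± 10 to 156 ± 1.85 CPM, edgeR adjusted p = 0.000646). Mapk8 (JNK1) and Gsk3b, kinases that phosphorylate family proteins, rose 1.29- and 1.36-fold (edgeR adjusted p = 0.00449 and 0.00498). Among 12 partners at the mitochondrion and endoplasmic reticulum 3 fell, 1 rose and 8 were not called. Bnip3l (NIX, an atypical BH3 protein of mitophagy), Bnip1 and Vdac2, the channel that holds BAK at mitochondria, fell 1.73-, 1.77- and 1.32-fold (edgeR adjusted p = 0.00091, 0.00183 and 0.00486). Bnip2 was called higher (log2 fold change 0.65, edgeR adjusted p = 0.0427), but its libraries overlapped, with 145 to 285 CPM in tatcre and 116 to 151 CPM in mock libraries. That call was lost without mock 1, mock 2, tatcre 1 or tatcre 2 (edgeR adjusted p from 0.0549 to 0.165), in the DESeq2 fit (adjusted p = 0.153) and with the replicate block (edgeR adjusted p = 0.0778), and the log2 fold change was 0.30 without tatcre 2.

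Upstream of the family, 5 of 15 transcription factor genes fell, 1 rose and 9 were not called, where all tested genes had 16.3% lower and 10.8% higher. Stat5a, a factor that activates Bcl2l1 in many cells, fell 1.75-fold (153 ± 12.5 to 87.2 ± 4.13 CPM, edgeR adjusted p = 7.8e-05). Myc fell 1.69-fold (edgeR adjusted p = 0.000368) and Ddit3, which encodes the stress factor CHOP, 1.96-fold (edgeR adjusted p = 0.00236). The single rise was that of Foxo3, a known activator of Bcl2l11 (26.4 ± 0.676 to 35.7 ± 1.07 CPM, 1.35-fold, edgeR adjusted p = 0.00353). Of 6 tested survival receptor genes 3 fell and 3 were not called. Tnfrsf13c, the receptor for the B cell survival factor BAFF, fell 1.74-fold (599 ± 41.9 to 345 ± 25.4 CPM, edgeR adjusted p = 7.05e-05) and Tnfrsf13b (TACI) 1.22-fold (edgeR adjusted p = 0.0177; 0.0504 without mock 2 and 0.072 without scaling factors). List medians lay between -0.27 (survival receptors) and 0.06 (apoptosome) on the log2 scale.

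**Figure D5:**
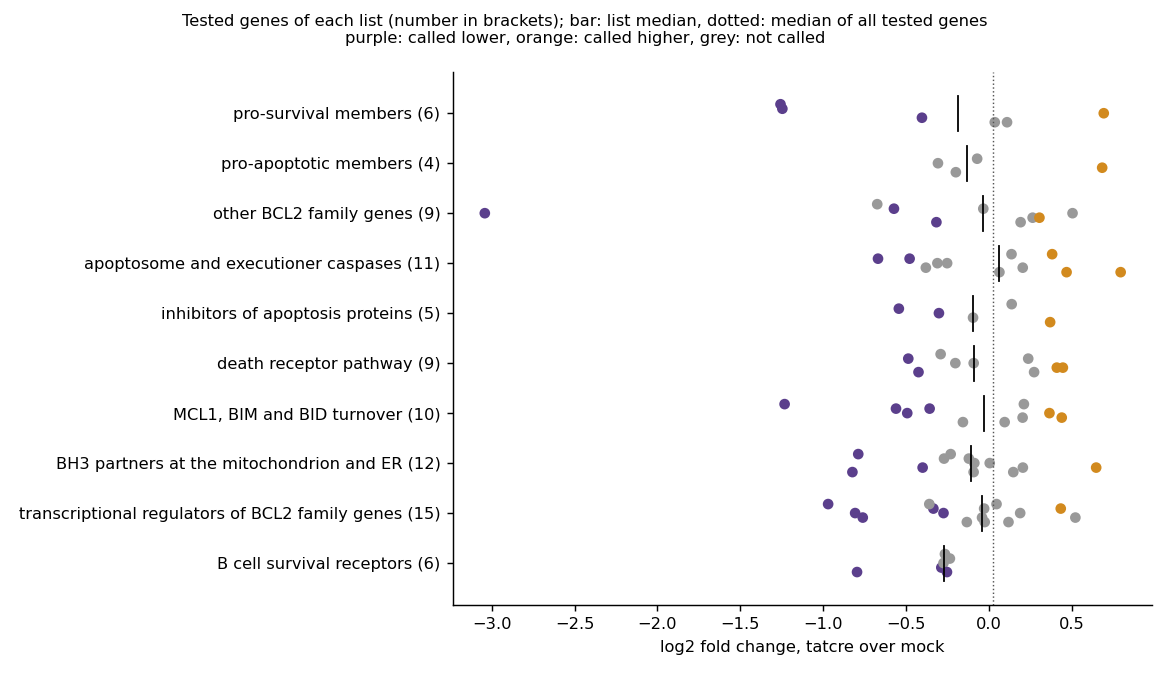
log2 fold change of tatcre over mock for every tested gene (points) of the 2 member groups and 8 lists of apoptosis genes, with each list's median (bar) and the median of all tested genes, 0.02 (dotted line). All groups but the pro-apoptotic members and the survival receptors hold calls in both directions, and the 6 survival receptor genes all lie below 0.

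Promoters of the family were searched for short motifs (RefSeq, GRCm38.p6, windows of 250 bases before to 50 after a start site, both strands). The 10 members had 15 windows. The YY1 core GCCATNTT was in none of them and in 6.05% of all 32851 windows. The FOXO core GTAAACA was in 1 of the 15 and in 3.65% of all windows. Whether a FOXO factor acts on Bcl2l11 in these cells was not tested. The match lies in 1 of the 2 windows of Bcl2l11 (chr2:128125803-128125825, plus strand) and is shown with the motif in capitals.
Bcl2l11: acactaggGTAAACAcgccgggg
A 10-base pattern only loosely like NF-kB sites was in 2 of the 15 windows and in 1.63% of all. It accepts any base at 2 inner positions, so its matches are not read as NF-kB sites, and the 2 shares are not read as an excess of such sites. The matches lie in Bcl2l1 and Mcl1, genes that were called lower and not called. They are shown with the motif in capitals as it reads on its reverse strand.
Bcl2l1 (chr2:152830918-152830943, minus strand): cgcctctcGGAAAAACCCgggagtgg
Mcl1 (chr3:95658685-95658710, plus strand): agccctccGGAAACGCCCgccccttt
A match is a run of letters and not a binding site, and the absence of one in these windows says nothing of the factor. The windows of Bcl2a1a, Bcl2a1b and Bcl2a1d held none of the 3 patterns, and that of Bcl2a1c, the copy with no counts, held a YY1 core that begins 18 bases past its start site.

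Genes with the pattern most like called members over the 6 libraries were also looked up, among 9244 genes outside the lists. Suclg2, a subunit of a mitochondrial succinyl-CoA ligase, was most like Bcl2a1b (Pearson r = 0.999 on log2 CPM). Afdn was most like Bcl2l2 (r = 0.997), Decr2 most like Bcl2l11 (r = 0.998) and Rbm5 most like Bcl2l1 (r = 0.998). Such values are common with 6 libraries in 2 groups: 1502 of the searched genes reached an r of 0.9 with Bcl2a1d and 583 with Bcl2l11. Bcl2 and Mcl1 had 26 such genes each.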

How the data were processed

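RNA-seq of 3 mock and 3 tatcre libraries was used. The deposited files hold raw read counts per Ensembl gene. The submitters' processing notes name HTSeq, TopHat2, Trimmomatic and SAMtools and build mm10, without versions. How strand and multiply placed reads were treated, and which annotation was used, is not stated, so near-identical and overlapping genes carry that uncertainty. ChIP peak lists were not used, because some peaks lie past the last mm10 genes and their build is not settled. Symbols came from a table of gene names, which matched 48349 of 48795 IDs, and coordinates and promoters from RefSeq (GRCm38.p6).

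Genes passing edgeR's filterByExpr (minimum count 10, minimum total 15) were scaled by TMM and tested, tatcre against mock, by edgeR's quasi-likelihood test (version 4.0.16 under R 4.3.3), with p-values adjusted by Benjamini-Hochberg over 15546 genes. The SE is the log2 fold change over the square root of F, and intervals are 95%. The test was checked on simulated data. A count of 0 allows up to 3 counts, 0.111 to 0.128 CPM by library, for counting error only. Alternatives were RLE, upper-quartile and no scaling factors, no filter, only genes of mean log2 CPM of at least 2, DESeq2 1.42.0, a replicate block, each library left out, and the Bcl2a1 copies summed. Copies were aligned with Biopython 1.88.

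Members and lists were chosen with earlier results of these data known. All members and other family genes are named, and of each further list at most 3 called genes in each direction, by adjusted p. For each member the most correlated gene outside the lists is named, or the number of alike genes given. Some genes that these rules select are not reported here. Neighbouring genes were picked by position, and which of them to name was chosen after their values were seen. Counts of any pair of replicates differed beyond sampling noise (chi-square over its degrees of freedom at least 7.5), so none was taken as the same library counted again. This does not tell whether replicates come from separate mice.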

Additional observations from a re-analysis of the deposited data

How the results depend on the processing

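The number of members called was 5 in the reported fit and 4 to 6 in the alternatives. It was 6 without the filter on low counts, with DESeq2, without mock 1 and without tatcre 3, in each case by the addition of Bid, and 4 with the Bcl2a1 copies counted as a single gene. Over all fits the log2 fold change ran from -1.29 to -1.15 for Bcl2a1d, -1.31 to -1.14 for Bcl2a1b, -0.50 to -0.30 for Bcl2l1, 0.62 to 0.80 for Bcl2l2, 0.59 to 0.79 for Bcl2l11 and -1.27 to -1.14 for the summed copies. The adjusted p for Bcl2l1 reached 0.0408 at most. With library size alone the all-gene median moved from 0.02 to 0.13 on the log2 scale, so changes are read against it. Signs near 0 turned, with no call on either side: Mcl1 was at -0.0117 without mock 2 (-0.0117 to 0.0714 with a library left out). Bmf was at 0.0345 with library size alone, and at 0.0988, 0.0156 and 0.105 without mock 1, mock 3 and tatcre 1 (-0.356 to 0.105 over libraries left out). Bcl2l15 was at 0.0369 with upper-quartile factors, 0.0696 with library size alone, 0.0278 with genes of mean log2 CPM of at least 2, 0.172 without mock 1 and 0.103 without tatcre 3 (-0.223 to 0.172 over libraries left out). The cause was not tested. Calls among other family genes fell from 4 to 1 without mock 1, mock 2 or tatcre 1 and to 2 without tatcre 3. Death receptor calls fell from 4 to 2 without mock 1, mock 3, tatcre 1 or tatcre 3, inhibitor of apoptosis calls from 3 to 1 without mock 2 and survival receptor calls from 3 to 1 without mock 2. Survival receptor calls were 1 with library size alone, 5 with DESeq2 and 6 without the filter.

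With the replicate number as a block the same 5 members were called, with 3421 genes called in all against 4215. Calls were 1 among other family genes (Pmaip1) and 2 in the death receptor list, where Fadd (edgeR adjusted p = 0.06) and Tnfrsf10b (edgeR adjusted p = 0.08) were lost. Bcl2l12, Bcl2l13 and Bcl2l14 lost theirs too (edgeR adjusted p = 0.0764, 0.0657 and 0.0635), as did Bnip2 (edgeR adjusted p = 0.0778). Correlations of deviations between libraries of the same number were 0.0559, -0.032 and 0.226, and mock 1 correlated best with tatcre 2 (0.248). With 3 libraries a group, centred on their group mean, these values cannot decide whether equal numbers are pairs. No label ties a number to a mouse, so the block was kept as an alternative. Depth limits Bmf, Bcl2l14 and the untested family genes.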
